A study of Homo sapiens with 6 samples.

Results

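The genes of cholesterol and fatty acid synthesis were followed in SW480 cells after knockdown of RBM39, an RNA-binding protein and splicing factor. The group holds 31 genes out of 56303 gene symbols in the deposited count table. They were chosen by their known place in sterol and fatty acid synthesis, with earlier results of these data known. SW480 cells derive from a colon adenocarcinoma and grow as an epithelial line, and the labels give the control group as WT and the other as RBM39 knockdown. The control cells (shCtrl) carried a nonsilencing short hairpin RNA and the knockdown cells (shRBM39) a hairpin against RBM39. In the study's methods both hairpins were delivered by lentivirus and cells were selected with puromycin as stable clonal lines, and all cells grew in medium with fetal bovine serum. Each group had 3 libraries, replicates 1 to 3. Nothing ties the libraries of a group to separate clones, so the p-values measure the spread between these libraries.

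Total counts ran from 18042924 to 20428901 per library, and all 31 genes were among the 18243 genes with enough counts to be tested. RBM39 itself had 441, 448 and 435 CPM (read counts scaled to a common library size with TMM factors) in shCtrl and 266, 276 and 292 CPM in shRBM39, a log2 fold change of -0.67. The epithelial markers EPCAM and KRT8 had 591 and 6924 CPM in shCtrl. The leukocyte marker PTPRC had 0 counts in every library and the fibroblast marker DCN at most 1. Other markers of these cell types were present, with means of 15.7 CPM for CD68 (leukocytes) and 5.58 CPM for COL1A1 (fibroblasts) in shCtrl. Of the 7 colon epithelial markers 2 were higher and 3 lower in shRBM39, with a summed level of 11720 to 12550 CPM in shCtrl and 14770 to 15350 CPM in shRBM39. CDX2, an intestinal transcription factor gene, differed most among them, at 21.7 against 4.95 CPM. The markers of fibroblasts and of endothelium summed to at most 12.4 and 7.96 CPM in any library. COL1A1, PECAM1 and VWF among them were called higher in shRBM39, while CD68, the leukocyte marker with enough counts to be tested, was not called. The part of these marker changes in the results below was not tested. In bulk RNA, fewer cells that express a gene and less RNA per cell cannot be told apart.

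Cholesterol is built in the cytosol and endoplasmic reticulum from acetyl-CoA, by way of mevalonate, isoprenoid units, squalene and lanosterol. Fatty acids are built from the same acetyl-CoA and are then elongated, desaturated and activated with coenzyme A. Both pathways are controlled at the level of transcription by the sterol regulatory element-binding proteins encoded by SREBF1 and SREBF2, membrane-bound precursors that are held back by INSIG proteins when sterols are plentiful and are cleaved to active factors when sterols are scarce. SREBF2 acts mainly on the sterol genes and SREBF1 on the fatty acid genes.

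Most of these genes were higher in the knockdown cells, and the gene of the transcription factor that is known to control the sterol branch was lower. Of the 31 genes, 22 were higher and 2 lower in shRBM39 at an adjusted p below 0.05 (quasi-likelihood test of edgeR), and 7 were not called. Over all tested genes 59.1% were called, 29.2% higher and 29.9% lower. Because none of the 31 genes is very weakly expressed, the shares were also taken over the 11950 tested genes within the same range of mean CPM, where 68.7% were called, 35.6% higher and 33.0% lower. The total share of called genes in the group, 77.4%, was near that background, so the number of calls alone says little about these genes, and the description rests on their direction and size. The values of the 2 groups of libraries did not overlap in 24 of the 31 genes, against 63.3% of all tested genes. The median log2 fold change of the 31 genes was 0.39, beside -0.01 over all tested genes. When only log2 fold changes beyond 0.5 in size were tested for, 9 genes of the group were called (ACAT2, HMGCS1, IDI1, FDPS, NSDHL, DHCR7, ELOVL6 and FADS2 higher, SREBF2 lower), where 12.2% of all tested genes were.

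**Figure D1:**
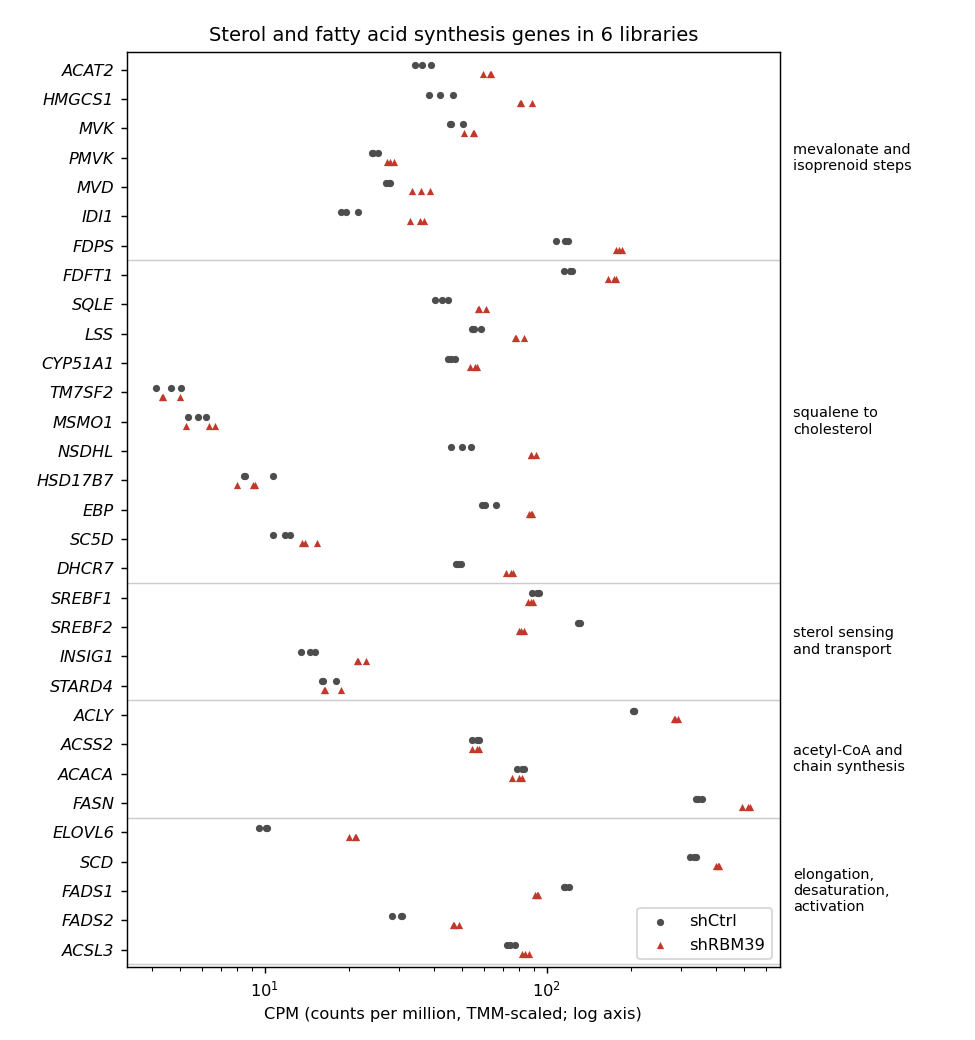
Level of each of the 31 genes in CPM (log axis) in the 3 shCtrl libraries (grey circles) and the 3 shRBM39 libraries (red triangles), grouped by role. The groups are apart in 24 genes, and only in SREBF2 and FADS1 of these do the shRBM39 libraries lie on the lower side.

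**Figure D2:**
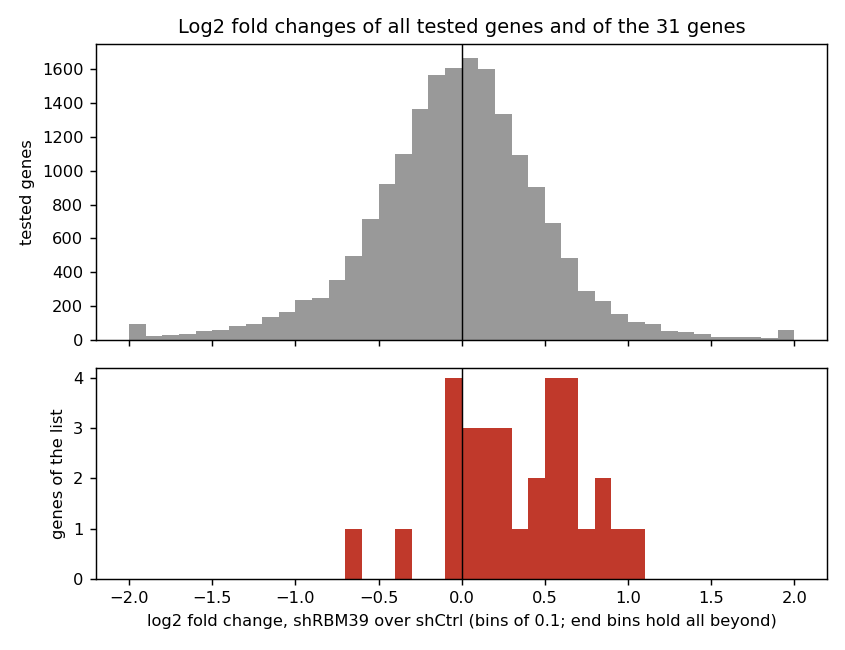
Number of genes per bin of log2 fold change (shRBM39 over shCtrl) for the 18243 tested genes, above, and the 31 sterol and fatty acid synthesis genes, below. The tested genes centre close to 0, while 25 of the 31 genes lie above 0.

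The balance of calls depends on the scaling. With library totals alone in place of TMM factors, the median of all tested genes moved to -0.14 and the share of calls that were higher fell from 49.4% to 33.9%. On that scale 18 genes of the group were higher and 5 lower, and their median was 0.26. The distance between the median of the group and that of all genes was 0.40 on either scale. It could hardly differ, because a change of scaling shifts all genes by nearly the same amount.

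The early steps, from acetyl-CoA to farnesyl diphosphate, moved in 1 direction: all 7 genes were higher in shRBM39 and their median log2 fold change was 0.66. Their summed level was 312 ± 14.6 CPM in shCtrl and 479 ± 12.7 CPM in shRBM39 (SD, n = 3). HMGCS1 (chromosome 5, 43289395 to 43313512, GRCh38), the synthase that makes HMG-CoA, had 46.5, 38.2 and 41.8 CPM in shCtrl and 80.2, 80.9 and 88.5 CPM in shRBM39. All 3 knockdown libraries lay far above the control libraries, a rise of 97.6% (log2 fold change 0.98, standard error 0.05, edgeR adjusted p 3.55e-17). IDI1 (chromosome 10, 1039908 to 1049170), which isomerizes isopentenyl diphosphate, had 19.5, 18.7 and 21.5 CPM in shCtrl and 32.7, 35.7 and 36.9 CPM in shRBM39. Its rise was 76.3% (log2 fold change 0.82, standard error 0.06, edgeR adjusted p 2.67e-13).

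ACAT2 (chromosome 6, 159760328 to 159779055), the cytosolic thiolase that joins a pair of acetyl-CoA units, had 38.9, 34.2 and 36.1 CPM in shCtrl and 63.6, 59.3 and 63.1 CPM in shRBM39, with no overlap and a log2 difference of 0.77 ± 0.05 (SE, adjusted p 3.85e-15 in edgeR). FDPS (chromosome 1, 155308748 to 155320666), farnesyl diphosphate synthase, was the most abundant of the early genes, with 119, 108 and 116 CPM in shCtrl and 176, 185 and 180.5 CPM in shRBM39. It rose by 58.0% (log2 fold change 0.66, standard error 0.04, edgeR adjusted p 8e-16). The 3 enzymes that turn mevalonate into isopentenyl diphosphate changed less than their neighbours in the pathway. MVD, the decarboxylase, went from 27.5 ± 0.537 to 36.0 ± 2.62 CPM (SD, n = 3), which is 0.39 on the log2 scale with an edgeR adjusted p of 5.91e-07. The kinase genes MVK and PMVK had log2 fold changes of 0.18 (edgeR adjusted p 0.00211) and 0.19 (edgeR adjusted p 0.00587). For MVK the groups were barely apart, since the highest shCtrl library had 50.7 CPM and the lowest shRBM39 library 50.8 CPM. Both kinase genes kept their direction but lost the call under library totals alone, at 0.06 and 0.07.

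Some of these genes share exon sequence with a gene on the other strand, and whether the counting used the strand is not given in the sources used here. ACAT2 overlaps SOD2 over 43.0% of its exon length and TCP1 over 9.23%, and these had log2 fold changes of 0.56 and 0.64. FDPS shares 18.6% of its exon length with RUSC1-AS1, which had 0.61, and HMGCS1 shares 703 bases of exon with CTD-2636A23.2, which had 1.07. IDI1 shares 17.9% with IDI2-AS1, which had 575 counts over all libraries beside 3194 for IDI1. SOD2, TCP1, RUSC1-AS1 and CTD-2636A23.2 thus moved in the same direction as the gene they overlap, and their part in its counts was not tested.

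From squalene to cholesterol, 8 of 11 genes were higher, none was lower and 3 were not called. The summed level of the 11 genes was 456 ± 14.3 CPM in shCtrl and 650.4 ± 11.9 CPM in shRBM39 (SD, n = 3). NSDHL (chromosome X, 152830967 to 152869729), a dehydrogenase that helps to remove the methyl groups at carbon C4 of the sterol, changed most, with 54.1, 46.0 and 50.0 CPM in shCtrl and 88.0, 91.9 and 88.1 CPM in shRBM39. This was a rise of 78.6% (log2 fold change 0.84, standard error 0.05, edgeR adjusted p 1.6e-16). DHCR7 (chromosome 11, 71428193 to 71452868), which reduces 7-dehydrocholesterol to cholesterol, had 48.4, 49.9 and 47.6 CPM in shCtrl and 74.9, 76.3 and 71.9 CPM in shRBM39, with a log2 difference of 0.61 ± 0.04 (SE, adjusted p 6.84e-14 in edgeR). In both genes every knockdown library lay well above every control library.

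FDFT1, squalene synthase and the branch point of the sterol pathway, went from 119 ± 3.96 to 172 ± 5.53 CPM (SD, n = 3), which is 0.53 on the log2 scale with an edgeR adjusted p of 1.21e-13. SQLE, the oxygenase that makes squalene epoxide and a rate-limiting step, went from 42.5 ± 2.35 to 58.4 ± 2.04 CPM (SD, n = 3), which is 0.46 on the log2 scale with an edgeR adjusted p of 5.58e-10. LSS, which closes the rings to give lanosterol, and EBP, a sterol isomerase, had near-equal log2 fold changes of 0.50 (edgeR adjusted p 1.18e-11) and 0.50 (edgeR adjusted p 1.12e-11). SC5D, a sterol desaturase, rose by 0.30 on the log2 scale (edgeR adjusted p 0.00229) from a low level of 11.6 ± 0.834 CPM (SD, n = 3), and lost the call under library totals alone, at 0.17. CYP51A1, the lanosterol demethylase, rose by 0.27 on the log2 scale (edgeR adjusted p 7.99e-06). CYP51A1 shares 78.8% of its exon length with LRRD1 on the same strand. The reads of this pair could be split, dropped or counted for both genes. LRRD1 had 5543 counts over all libraries beside 5939 for CYP51A1, and a log2 fold change of 0.26. How the shared reads were assigned was not tested.

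The 3 genes of this stretch that were not called are also its 3 weakest in CPM. TM7SF2, a sterol reductase, had 5.06, 4.66 and 4.13 CPM in shCtrl and 5.00, 4.36 and 4.34 CPM in shRBM39. MSMO1, the C4-methyl oxidase that acts in the same demethylation as NSDHL, had 6.20, 5.79 and 5.37 CPM in shCtrl and 5.26, 6.33 and 6.66 CPM in shRBM39. HSD17B7, the keto-reductase of that demethylation, had 8.54, 8.48 and 10.7 CPM in shCtrl and 7.96, 9.06 and 9.24 CPM in shRBM39. The groups overlapped in all 3 genes. The 95% intervals of their log2 fold changes were -0.28 to 0.25 for TM7SF2, -0.17 to 0.31 for MSMO1 and -0.29 to 0.13 for HSD17B7. A rise of the size seen for NSDHL lay above these intervals, while a small rise was not detectable at this depth. HSD17B7 has a near-identical pseudogene, HSD17B7P2, with a mean of 0.60 CPM in shCtrl, so its counts are less certain.

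**Figure D3:**
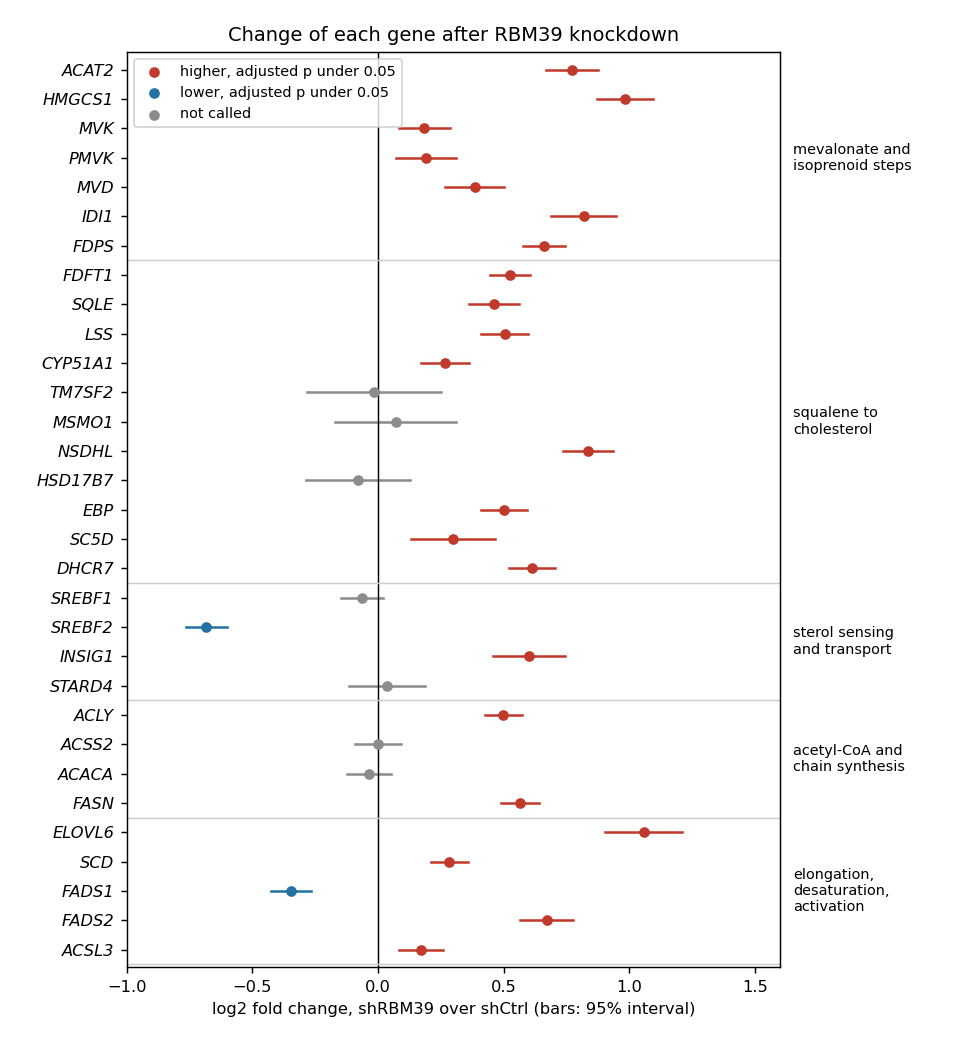
Log2 fold change of each of the 31 genes (shRBM39 over shCtrl) with its 95% interval from the edgeR fit, in pathway order. Red marks genes called higher, blue genes called lower and grey genes not called; all 7 early sterol genes are red, and SREBF2 is the lowest at -0.68.

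The 4 genes of sterol sensing and transport were split, with 1 higher, 1 lower and 2 not called. SREBF2 (chromosome 22, 41833079 to 41907308), which encodes the transcription factor SREBP2, had 131, 130.5 and 129.7 CPM in shCtrl and 79.5, 83.5 and 80.8 CPM in shRBM39. The control libraries differed by less than 2 CPM, and all knockdown libraries lay far below them. SREBF2 fell by 37.7% (log2 fold change -0.68, standard error 0.04, edgeR adjusted p 1.75e-16), the largest decrease of the 31 genes, and its log2 fold change ranged between -0.81 and -0.60 in the alternatives tried. SREBF1 (chromosome 17, 17810399 to 17837002) had 94.0, 89.1 and 92.4 CPM in shCtrl and 86.2, 89.3 and 88.4 CPM in shRBM39, a log2 fold change of -0.06 with a 95% interval of -0.15 to 0.02, and was not called (edgeR adjusted p 0.194). With upper-quartile scaling and with library totals alone it was called as lower, at -0.10 and -0.19, and stood at 0.02 after a correction for GC content and gene length.

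INSIG1 (chromosome 7, 155297776 to 155310235), the sterol sensor that retains the SREBP precursors in the endoplasmic reticulum and is itself a known SREBP target, had 14.5, 13.5 and 15.1 CPM in shCtrl and 21.2, 21.4 and 22.8 CPM in shRBM39. It rose by 51.8% (log2 fold change 0.60, standard error 0.07, edgeR adjusted p 5.04e-09), with no overlap between the groups. STARD4, a sterol transfer protein, had 16.7 ± 1.05 CPM in shCtrl and 17.0 ± 1.34 CPM in shRBM39 (SD, n = 3) and was not called (95% interval -0.12 to 0.19). INSIG1 was thus higher and SREBF2 lower in the same libraries. INSIG2, the other INSIG gene, named here after its values were seen, was called lower at -0.50 (edgeR adjusted p 0.000423). Its groups overlapped, at 7.725 to 11.02 CPM in shCtrl and 5.972 to 7.796 CPM in shRBM39.

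Among the 9 fatty acid genes, 6 were higher, 1 was lower and 2 were not called. ELOVL6 (chromosome 4, 110045846 to 110199199), which elongates palmitate, had the largest increase of the 31 genes, from 10.2, 9.52 and 10.1 CPM in shCtrl to 21.0, 19.9 and 20.9 CPM in shRBM39. Its log2 fold change was 1.06 ± 0.08 (SE, adjusted p 3.45e-14 in edgeR), at or above that of 97.9% of all tested genes. FASN (chromosome 17, 82078333 to 82098332), fatty acid synthase, was the most abundant of the 31 genes in CPM, with 356, 339.9 and 344 CPM in shCtrl and 516, 528 and 493 CPM in shRBM39, a rise of 47.9% (log2 fold change 0.56, standard error 0.04, edgeR adjusted p 5.97e-15).

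ACLY (chromosome 17, 41866908 to 41930542), which cleaves citrate to cytosolic acetyl-CoA, had 204, 202 and 205 CPM in shCtrl and 293, 286 and 283 CPM in shRBM39, a log2 fold change of 0.50 (edgeR adjusted p 5.86e-14). ACSS2, which makes acetyl-CoA from acetate, had 56.6, 54.3 and 57.5 CPM in shCtrl and 56.6, 57.4 and 54.6 CPM in shRBM39, and the groups overlapped throughout. The log2 fold change of ACSS2 was 0.00, and its 95% interval of -0.09 to 0.09 lay below the change of ACLY. ACACA, acetyl-CoA carboxylase and the committed step of fatty acid synthesis, had 82.9, 81.5 and 78.3 CPM in shCtrl and 81.9, 79.7 and 75.3 CPM in shRBM39 and was not called, with a 95% interval of -0.12 to 0.05. It was called as lower under library totals alone, at -0.16, and as higher after the correction for GC content and gene length with no replicate block, at 0.09. Of the enzymes next to each other on the route from citrate to palmitate, ACLY and FASN were thus higher and ACACA, between them, was not called.

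The desaturases differed in direction. SCD (chromosome 10, 100347124 to 100364834), the stearoyl-CoA desaturase, rose from 332 ± 8.79 to 404 ± 5.01 CPM (SD, n = 3), which is 0.28 on the log2 scale with an edgeR adjusted p of 3.26e-08. FADS1 and FADS2 occupy overlapping spans on chromosome 11, encode desaturases that act on the same polyunsaturated fatty acids, and went opposite ways. FADS2 (61792980 to 61867354) had 30.5, 30.7 and 28.2 CPM in shCtrl and 49.1, 47.0 and 46.5 CPM in shRBM39, a log2 difference of 0.67 ± 0.05 (SE, adjusted p 2.5e-13 in edgeR). FADS1 (61799625 to 61829318) had 116, 120.4 and 115 CPM in shCtrl and 93.4, 90.9 and 92.2 CPM in shRBM39, a log2 difference of -0.35 ± 0.04 (SE, adjusted p 3.18e-09 in edgeR). Neither gene's groups overlapped, and both kept their call and direction under each alternative with the threshold at 0. The pair lies on opposite strands and shares 490 bases of exon, 4.79% of FADS1 and 4.44% of FADS2. FADS2 also shares 49 bases of exon with FEN1 on the same strand. FEN1 had 16335 counts over all libraries beside 4512 for FADS2, and its part in the FADS2 counts was not tested. ACSL3, which activates long-chain fatty acids, rose by 0.17 on the log2 scale (edgeR adjusted p 0.000912), but had 0.05 and lost the call under library totals alone.

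Per kilobase of exon, the scale on which genes can be compared with each other, the levels in shCtrl spanned 45.7-fold. SCD was highest at 62.0 ± 1.64 CPM per kilobase (SD, n = 3), followed by ACLY at 39.0 ± 0.290 and FASN at 37.0 ± 0.897. The most abundant sterol enzyme on this scale was FDPS at 30.8 ± 1.64, followed by EBP at 25.7 ± 1.58 and NSDHL at 25.1 ± 2.04. TM7SF2 and ELOVL6 were lowest at 1.36 ± 0.137 and 1.36 ± 0.0490. In the order of the 31 genes, 16 of 30 neighbouring pairs overlapped in their shCtrl libraries, among them EBP and NSDHL, the stretch from DHCR7 through FADS1 and SREBF1 to CYP51A1, and the stretch from ACSS2 down to MVK. The exon length merges all annotated isoforms of a symbol, so long minor isoforms lower this level.

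**Figure D4:**
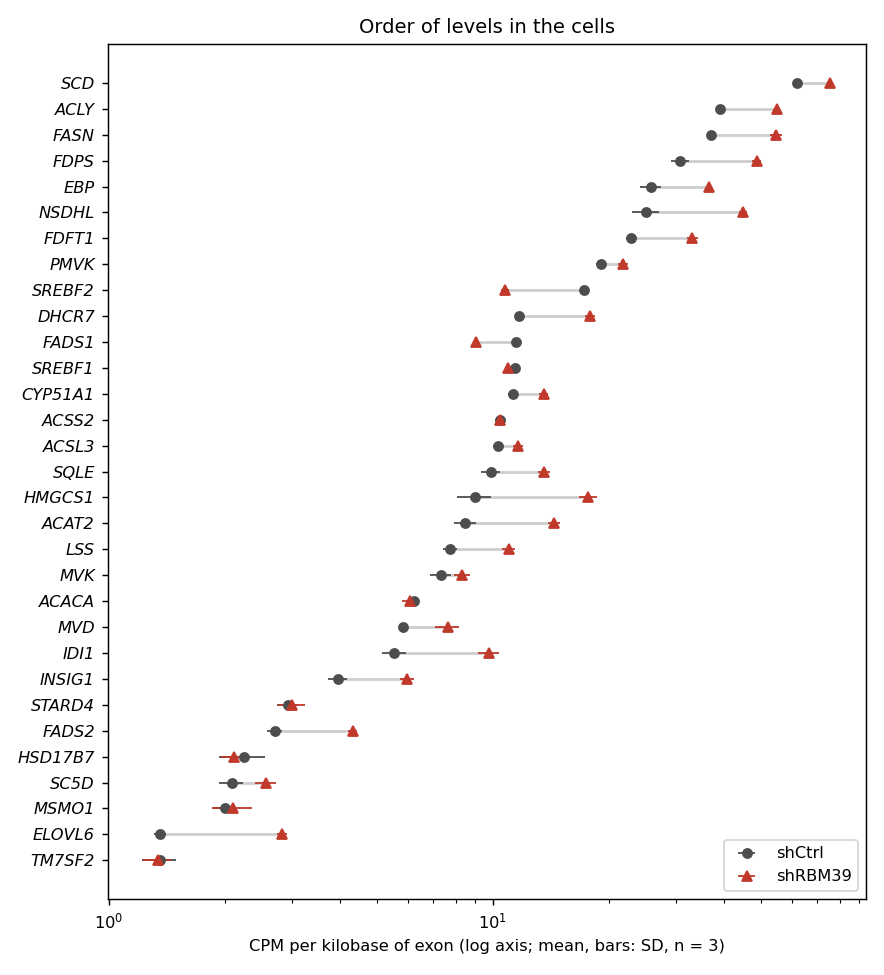
Level of each gene per kilobase of exon (CPM per kilobase, log axis) as mean with SD over 3 libraries, in shCtrl (circles) and shRBM39 (triangles), ordered by the shCtrl level. The level of SREBF2 drops from 17.3 to 10.8 and that of NSDHL rises from 25.1 to 44.8.

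The sequence before the transcription start was described because many of these genes are known to share control elements. A link between these elements and the changes was not tested. SREBPs bind sterol regulatory elements, searched here as TCACNCCAC, and commonly act together with NF-Y, which binds the CCAAT box, and with Sp1, which binds GC boxes, searched here as GGCGGG. The E-box CACGTG, which SREBPs can also bind, was searched as well. Both strands of the 250 bases before each RefSeq start (GRCh38.p14) were read for 27 of the 31 genes. These genes had 37 such windows, and a gene was counted when any of its windows held the element. ACAT2, FDFT1, SQLE and FASN had no entry. The CCAAT box was present in 21 of the 27 genes, 77.8%, against 41.2% of the tested genes with an entry and 37.0% of all genes with an entry. It was present in 14 of the 18 genes with an entry that were higher in shRBM39. The higher genes without it were PMVK, CYP51A1, ELOVL6 and FADS2, and ELOVL6 had the largest rise of the 31 genes. Of the 2 lower genes, SREBF2 held a CCAAT box and FADS1 did not. The CCAAT box was also present in 6 of the 7 genes that were not called (all but SREBF1). In IDI1, counted among the higher genes, and ACACA, among those not called, it lay only before a start other than the first listed. GC boxes were present in 22 of the 27 genes, 81.5%, against 72.7% of tested genes and 46.1% of all genes with an entry. The E-box was present in INSIG1 and SC5D, 7.41% of the 27 genes, against 11.1% of tested genes and 7.73% of all. The sterol element in the form searched was present in SREBF2 only, 3.70% of the 27 genes, against 1.21% of tested genes and 1.09% of all. A match is a run of letters, not a measured binding site, and the absence of a match says only that these letters are not in this window.

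The stretch before SREBF2 is shown because it holds the match to TCACNCCAC, and those before HMGCS1, NSDHL and FDPS, picked after their values were seen, as the 3 sterol enzymes with the largest rise among those with a CCAAT box in the stretch shown. Capitals mark TCACNCCAC and the CCAAT box, which reads ATTGG on the other strand. Each is written 5′ to 3′ in the sense of the gene, on GRCh38.p14, begins at position -250 from the RefSeq start and stops before the first annotated exon of a coding gene, at position -27 for SREBF2, -101 for HMGCS1, -97 for NSDHL and -119 for FDPS. SREBF2 lies at chr22:41832855-41833078 on the plus strand, HMGCS1 at chr5:43313513-43313662 on the minus strand, NSDHL at chrX:152830813-152830966 on the plus strand and FDPS at chr1:155308616-155308747 on the plus strand.
SREBF2: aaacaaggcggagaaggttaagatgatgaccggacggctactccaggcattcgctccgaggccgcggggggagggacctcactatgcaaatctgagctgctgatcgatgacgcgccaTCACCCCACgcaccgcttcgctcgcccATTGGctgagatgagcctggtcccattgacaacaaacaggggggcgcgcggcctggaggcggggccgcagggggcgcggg
HMGCS1: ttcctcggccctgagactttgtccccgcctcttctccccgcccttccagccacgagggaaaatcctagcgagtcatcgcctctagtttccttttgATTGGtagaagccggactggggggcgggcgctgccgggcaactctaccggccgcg
NSDHL: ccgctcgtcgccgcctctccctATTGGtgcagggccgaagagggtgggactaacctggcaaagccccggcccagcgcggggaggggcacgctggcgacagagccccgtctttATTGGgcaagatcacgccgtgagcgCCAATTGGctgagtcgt
FDPS: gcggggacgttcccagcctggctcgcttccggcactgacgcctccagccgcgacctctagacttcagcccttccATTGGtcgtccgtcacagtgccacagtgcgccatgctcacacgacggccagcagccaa

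In SREBF2 the sterol element TCACCCCAC begins at position -133 from the start and is followed by a CCAAT box on the other strand at position -106. NSDHL holds 4 CCAAT boxes in the stretch shown, 2 of which overlap each other, and HMGCS1 and FDPS 1 each. HMGCS1, NSDHL and FDPS rose by 0.98, 0.84 and 0.66 on the log2 scale, and SREBF2 fell by 0.68.

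The neighbouring pathways were described with 7 further lists of 82 genes, of which 73 could be tested. Of these, 25 were higher and 27 lower in shRBM39, and their median log2 fold change was -0.02, close to that of all tested genes. Among 7 other sterol enzymes, 5 were tested, 3 higher and 2 lower. ERG28, the scaffold of the C4 demethylation complex that is listed under its older symbol C14orf1, rose by 0.43 on the log2 scale, and FAXDC2 by 0.15. CYP27A1, which oxidizes cholesterol to a hydroxysterol, fell from 12.4 ± 1.28 to 6.27 ± 0.613 CPM (SD, n = 3), which is -0.99 on the log2 scale with an edgeR adjusted p of 2.73e-10.

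Of 9 regulators of sterol sensing, 1 was higher and 6 were lower. SCAP, the escort that carries SREBP precursors to the Golgi, and MBTPS1, the protease that makes the initial cut, were lower, with log2 fold changes of -0.31 (edgeR adjusted p 3.31e-05) and -0.26 (edgeR adjusted p 1.33e-06). NR1H3, an oxysterol receptor, was higher at 0.23, and the ubiquitin ligase gene MARCHF6, listed as MARCH6, was lower at -0.13. MBTPS2, the protease of the cut that follows, named here after its values were seen, was not called, with a log2 fold change of 0.07 (edgeR adjusted p 0.531). Of 12 genes of sterol transport and storage, 11 were tested, 2 higher and 4 lower. TMEM97 and NPC2, which act in sterol trafficking, were higher at 0.47 and 0.32. ABCA1, the sterol exporter, and MYLIP, a ligase that removes lipoprotein receptors, were lower at -1.34 and -0.67, from levels of only 1.54 ± 0.130 and 3.88 ± 0.528 CPM in shCtrl (SD, n = 3). Both are known targets of the oxysterol receptors. The part of these receptors, or of the SREBPs, in any change described here was not tested.

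The isoprenoid branch, which draws on the same diphosphates, was split. Of 11 genes 10 were tested, 5 higher and 5 lower, with COQ2 and NUS1 at 0.46 and 0.32 and IDI2 and PDSS2 at -0.61 and -0.51. Of 26 other genes of fatty acid synthesis, 21 were tested, 8 higher and 5 lower. SCD5, a second stearoyl-CoA desaturase, and HACD3, a dehydratase of elongation, were highest at 1.18 and 0.80. ACSL5 and ACSS1, an acyl-CoA and a mitochondrial acetyl-CoA synthetase, were lowest at -1.63 and -1.40. Levels in shCtrl were low for SCD5, ACSL5 and ACSS1, with means of 2.48, 7.60 and 1.705 CPM. Of 6 glycerolipid genes 3 were higher and none lower. GPAM, the entry step of triglyceride synthesis, stood at 1.17 (edgeR adjusted p 6.35e-12), DGAT2 at 0.43 and AGPAT2 at 0.17. Of 11 genes of fatty acid oxidation 3 were higher and 5 lower, with HADHB, a subunit of the mitochondrial trifunctional protein, at 0.15. PPARGC1A and PPARA, the coactivator and receptor that are known to promote oxidation, were lowest, at -1.38 and -1.07.

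Splicing, a separate readout of the same libraries, listed only ACSL3 among the 31 genes. The authors' table of selected splicing events held records for 6.54% of all tested genes. The ACSL3 record is a skipped exon of 107 bases (chromosome 2, 222900674 to 222900780). It had 14 inclusion and 11 skipping reads over the 3 libraries of group 1 and 15 and 3 over those of group 2, and which of the groups is the knockdown is not given there. Skipping reads were 0 in 1 library of each group, so these counts carry little weight.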

How the data were processed

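RNA-seq of 3 shCtrl and 3 shRBM39 libraries of SW480 cells was analysed. The authors deposited read counts per gene symbol on GRCh38. The submitters' processing notes name Trimmomatic 0.36, STAR 2.5.3a, featureCounts of Subread 1.5.1 and edgeR 3.12.1. The treatment of multimapping reads and the strand setting of the counting are not given in the sources used here, and either could move reads between overlapping genes or gene copies. The columns named NC were read as shCtrl. RPKM values and columns of the authors' own comparisons (differences and p-values of splicing events) were not used. The splicing table holds read counts that the authors selected by event, with groups 1 and 2 not tied to the labels.

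Counts were tested with edgeR 4.0.16 in R 4.3.3 (filterByExpr, TMM, quasi-likelihood test, group as the sole factor, 2-sided), with Benjamini-Hochberg adjustment over 18243 genes at 0.05. The design was tested on simulated data. Depth ran from 18042924 to 20428901 counts per library, with a biological coefficient of variation of 0.035, and TMM factors separated the groups (1.03 to 1.05 in shCtrl, 0.955 to 0.960 in shRBM39). No pair of libraries within a group agreed within sampling noise (chi-square per degree of freedom 2.11 to 4.21). The tool was exchanged for DESeq2 1.42.0, the scaling for upper-quartile factors or for unadjusted library totals, and the filter for none or for at least 10 counts in every library. A replicate block, a spline correction for GC content and length (with and without that block), a null of 0.5 in log2 fold change and the omission of each library were also tried. Exon length and GC content came from the annotated exons of each symbol, and 94.1% of the exons of the 31 genes were identical to GENCODE on GRCh38. Promoter windows came from RefSeq (GRCh38.p14).

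The 31 genes, the other lists and the motifs were chosen with earlier results of these data known. All 31 genes were named, and from each other list up to 4 called genes without overlap between the groups, namely the 2 that rose most and the 2 that fell most, except that some are not reported here. The promoter of SREBF2 was shown by rule, as the sole one with the sterol element. Genes with too few counts were left out of the tests (9 of the 82 genes of the other lists).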

Additional observations from a re-analysis of the deposited data

How the results depend on the processing

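Of the 31 genes, 24 were called with DESeq2, without a filter, with at least 10 counts in every library and without each library in turn, and 25 under upper-quartile scaling. The 31 genes had a median log2 fold change of 0.35 under upper-quartile scaling, 0.26 under library totals alone and 0.34 to 0.44 with 1 library left out, the lowest without shRBM39 replicate 2. Under library totals alone 5 genes were lower, since SREBF1, ACACA and ACSS2 were then called at -0.19, -0.16 and -0.12. The 4 genes that lost the call there were MVK, PMVK, SC5D and ACSL3. Against a log2 fold change of 0.5, a stricter null by construction, 9 of the 31 genes were called, 8 higher and 1 lower, and 2232 of all genes, 1031 higher and 1201 lower. DESeq2 called 9081 of all genes and edgeR 10790.

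Changes of sign were found in 7 genes, all not called in the test as reported. ACSS2 stood at -0.032 under upper-quartile scaling, -0.12 under library totals, -0.0068 with at least 10 counts, and from -0.023 to 0.025 with 1 library left out. Under library totals MSMO1 stood at -0.054 and STARD4 at -0.088. With 1 library left out MSMO1 ranged from -0.0016 to 0.173, STARD4 from -0.029 to 0.095, TM7SF2 from -0.084 to 0.061, HSD17B7 from -0.140 to 0.042 and ACACA from -0.059 to 0.0015. After the GC and length correction SREBF1 stood at 0.0176 without the block and 0.0172 with it, and ACACA at 0.0921 and 0.0920. The cause of these changes was not tested.

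Libraries of the same number did not deviate together (correlations of 0.0061, -0.028 and 0.0001), so the replicate numbers were not taken as pairs. With the replicate block 24 of the 31 genes and 10810 of all genes were called, and with the block and the GC and length correction 24 and 10775. Depth limits the genes under about 10 CPM, whose intervals leave small changes undetectable.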
